A study of Mus musculus with 30 samples.

Results

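The genes described here are the cell cycle and proliferation genes, a list of 41 gene symbols that runs from the enzymes that make DNA precursors to the proteins of the mitotic spindle. Members were found by their symbol in the annotation of the array. For 40 of the 41 genes at least 1 probe set carried that symbol alone, with 90 probe sets in all among the 45037 probe sets and 18193 named genes of the array, and each gene was read at its strongest probe set, judged by the mean of the 30 arrays. Ccnb1, the B-type cyclin that drives entry into mitosis, is unnamed here and has no value.

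The RNA was that of 10 male mice of genotype Avy/a at day 22, the time of weaning, whose liver, kidney and brain were each put on 1 array, 30 in all. Avy is a form of the agouti gene with a retrotransposon inserted upstream, and all mice carried it opposite the nonagouti allele a. There were 2 mice, numbered 1 and 2, in each of 5 coat classes, which run from yellow through slightly mottled, then mottled, then heavily mottled, to pseudoagouti, the fully agouti coat. The mice came from 1 colony kept by sibling mating, there were no mice without Avy, and arrays that share class and number were taken as 1 mouse.

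Cells that divide switch on most of these genes together. E2F factors release the genes of DNA replication late in G1, and the B-MYB, FOXM1 and DREAM complexes govern the genes of mitosis, so that the RNA is scarce in resting cells. In the young mouse the liver and kidney still grow by cell division, while most neurons of the brain have left the cycle and division goes on mainly among glial precursors and in a few neurogenic zones. In whole tissue a low signal for these genes can mean fewer dividing cells or less RNA in each of them, and the arrays cannot tell these apart.

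The tissue labels held against defining genes. For liver, kidney and brain alike, 7 of 7 measured markers were called higher in the labelled tissue against each of the other two. Genes of the liver marker list also had signal in brain arrays, with a sum from 868 to 32035 over the 10 brains, led by Ttr. The source of that signal in brain was not tested. The members had no detection call, so the 95th percentile of 83 probe sets for olfactory, vomeronasal and taste receptors served as a background level, which was a signal of 170.6 in liver, 119.3 in kidney and 143.7 in brain. By their mean, 35 of 40 members stood above it in liver, 37 in kidney and 18 in brain. Of all 45037 probe sets 19183 stood above it in liver, 23454 in kidney and 23719 in brain.

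Cell cycle RNA was most abundant in liver, close behind in kidney and low in brain. The summed signal of the 40 members ran from 20658 over a median of 34013 to 57739 in liver, from 17668 over 26878 to 34701 in kidney, and from 8124 over 9556 to 10055 in brain. Mouse 2 of the mottled class had a higher sum in kidney, 33965, than in liver, 32168. The mean of a member was highest in liver for 32 genes, in kidney for 7 and in brain for 1, Ccne1. The same count over all probe sets was not made. A tissue difference was called at an adjusted p under 0.05 in limma with a log2 difference of at least 1, within mice. Between liver and brain 34 of 40 members were called higher in liver, where 12.8% of all probe sets were, and 1 was called lower, against 20.9%. Between kidney and brain 30 members were called higher in kidney and 1 lower, against 12.6% and 15.8%. Between liver and kidney 4 members were called higher in liver and 0 lower, against 7.51% and 12.1% of all probe sets. At an adjusted p under 0.05 with no minimum size, Mcm2 was lower in liver than in kidney by 0.73 ± 0.21 (SE, log2, adjusted p = 0.00464). The median log2 difference of the members was 1.97 for liver minus brain, 1.74 for kidney minus brain and 0.48 for liver minus kidney, beside -0.08, -0.11 and 0.03 over all probe sets.

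**Figure D1:**
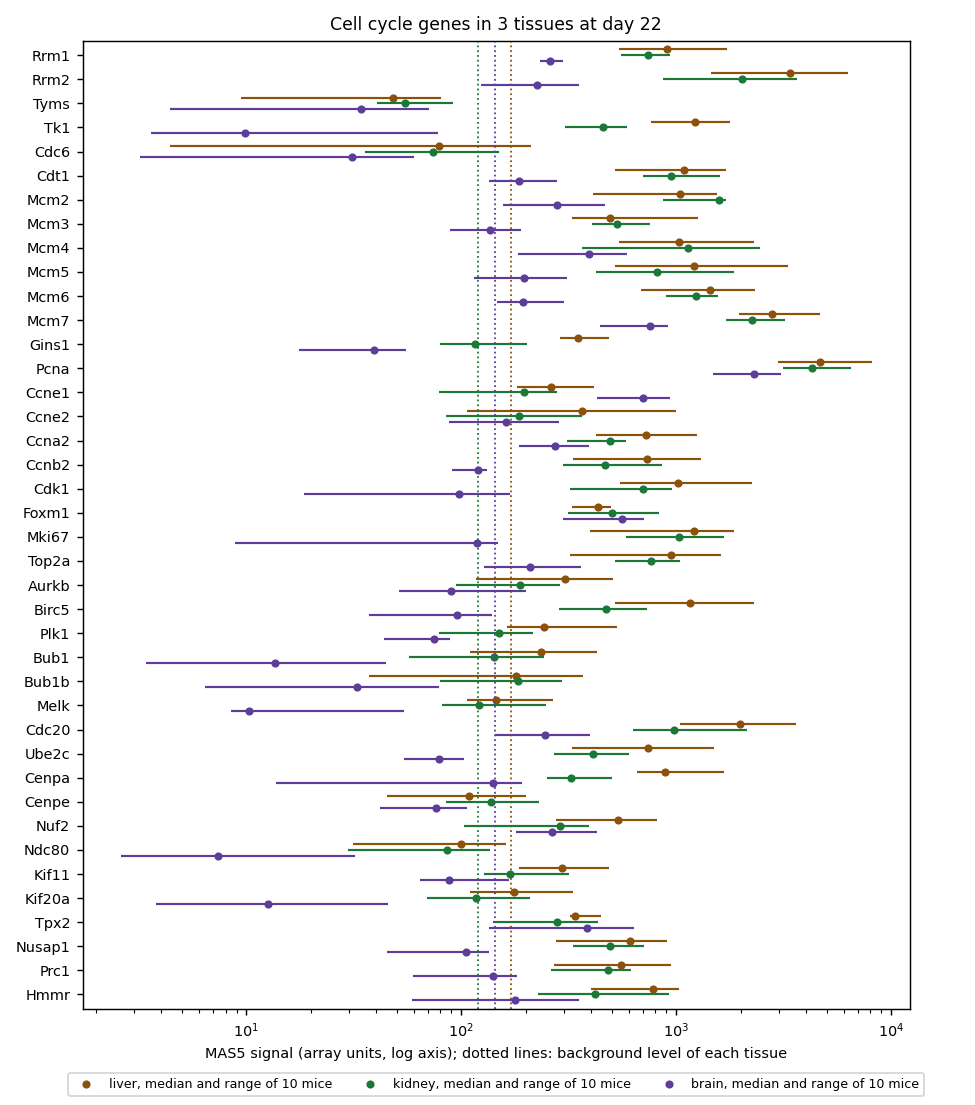
Signal of each of the 40 member genes on a log axis, in MAS5 array units. Dots are the median and lines the range of the 10 mice of a tissue, and dotted lines mark the background levels of 170.6 in liver, 119.3 in kidney and 143.7 in brain. Most brain ranges lie to the left of the liver and kidney ranges of the same gene, and Ccne1 lies to the right.

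For liver minus brain the widest gaps of the members were those of Tk1 and Rrm2, among the enzymes of DNA precursor synthesis. Rrm2, the S phase subunit of ribonucleotide reductase, had a lowest, median and highest signal of 1453, 3389 and 6320 in liver, 864, 2016 and 3657 in kidney and 123.5, 224.4 and 352.8 in brain. No brain array reached the lowest liver or kidney array, while liver and kidney overlapped. Its liver minus brain difference was 3.82 ± 0.16 (SE, adjusted p = 8.12e-18), a 14.1-fold ratio on the log2(signal + 16) scale. Tk1, the thymidine kinase that salvages thymidine in S phase, had signals of 766, 1225 and 1778 in liver and 303.7, 454.8 and 592.4 in kidney, which did not overlap, and 3.6, 9.9 and 78.2 in brain. Tk1 was higher in liver than in kidney by 1.38 ± 0.19 (adjusted p = 7.62e-07). Its difference from brain was 5.32 ± 0.19 (adjusted p = 2.98e-19), but the brain signal lay below the background level, and against that level the liver was at least 7.58-fold higher. Rrm1, the large subunit of the reductase, was less uneven, with mean signals of 922 ± 321 in liver, 748 ± 105 in kidney and 259 ± 18.5 in brain (SD, n = 10 each). Tyms, which makes thymidylate, was not above the background level in any tissue with any of its 4 probe sets, so its level in these tissues was not measured.

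Background of this kind touches many brain values. Of the 40 members 22 were not above the background level in brain, and for these the size of a difference from brain has only a lower bound. Among these 22 members 20 were called higher in liver than in brain, and 11 were at least 2-fold above the brain background level in liver. The same counts for kidney were 18 and 10. Mki67 had a bound of at least 7.08-fold in liver and 6.32-fold in kidney, and Cdk1 of 6.74-fold and 4.08-fold.

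Genes of origin licensing and the replication fork were high in both growing tissues. The MCM proteins form the ring that unwinds DNA, and Mcm2 to Mcm7 were all called higher in liver and in kidney than in brain. Mcm6 had signals of 683, 1436 and 2313 in liver, 896, 1237 and 1559 in kidney and 146.5, 192.7 and 301 in brain, so that brain stood apart and the other two overlapped. Its differences from brain were 2.74 ± 0.11 for liver (adjusted p = 2.84e-18) and 2.51 ± 0.11 for kidney (adjusted p = 3.02e-17). Mcm2 was the member with the largest difference in favour of kidney, with a mean signal of 1491 ± 241 there, 978 ± 447 in liver and 291 ± 100.1 in brain (SD, n = 10). Cdt1, which loads the MCM ring, was higher than in brain by 2.42 ± 0.15 in liver and 2.26 ± 0.15 in kidney. Cdc6, the partner of Cdt1 in loading, was called as well, but its means lay below the background level in the 3 tissues, so the size of its difference was not measured. Gins1, a subunit of the GINS complex of the helicase, separated liver from kidney, with 288.8, 347.3 and 484.7 in liver against 79.8, 115.8 and 202.2 in kidney and a difference of 1.46 ± 0.19 (adjusted p = 2.2e-07). Pcna, the sliding clamp that also serves DNA repair, was the least uneven of the called fork genes. Its mean signal was 4928 ± 1699 in liver, 4595 ± 1249 in kidney and 2235 ± 485 in brain (SD, n = 10), with differences from brain of 1.09 ± 0.13 and 1.02 ± 0.13.

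The cyclins did not move as a block. Ccnb2, a mitotic cyclin, and Cdk1, the kinase it activates, were called higher in liver and in kidney than in brain, where neither was above background. Ccnb2 had bounds of at least 4.50-fold in liver and 3.17-fold in kidney, and those of Cdk1 are given above. Ccna2, the cyclin of S phase and G2, was higher in liver than in brain by 1.43 ± 0.14, and its kidney difference of 0.77 ± 0.14 was under the minimum size at this probe set and 1.06 and called at its second one. Ccne2, a cyclin of the G1 to S step, was higher in liver than in brain by 1.01 ± 0.20 (adjusted p = 8e-05), while kidney and brain differed by 0.09 ± 0.20. Ccne1, the other E-type cyclin, ran against the rest. Its signals were 429.7, 699 and 936 in brain, 182.2, 261.1 and 413.2 in liver and 79.1, 195.6 and 279.4 in kidney, so every brain array was above every other array. Its liver minus brain difference was -1.24 ± 0.18 (adjusted p = 6.35e-07) and its kidney minus brain difference -1.79 ± 0.18 (adjusted p = 1e-09). The call in liver was lost with the Ccne1 probe set that is free of a suffix for shared sequence, where the difference was -0.47, and after quantile normalisation, while that in kidney was kept.

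Mki67, the antigen counted as Ki-67 in tissue sections, had signals of 395.8, 1204 and 1862 in liver, 584, 1033 and 1673 in kidney and 8.9, 117.8 and 148.4 in brain. Liver and kidney overlapped and differed by 0.16 ± 0.22 (adjusted p = 0.564), and both stood above every brain array. Top2a, the topoisomerase that untangles sister chromatids, had mean signals of 926 ± 365, 763 ± 172 and 207 ± 62.7 in liver, kidney and brain (SD, n = 10). Foxm1, a transcription factor of the mitotic genes, was not called in any of the 3 comparisons at its strongest probe set, with means of 424 ± 58.3, 544 ± 171 and 538 ± 140. At the other Foxm1 probe sets the means were at most 180 in any tissue.

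Kinases, checkpoint proteins and the anaphase promoting complex had their lowest means in brain, and all but Bub1b had their highest in liver. Birc5, the survivin subunit of the chromosomal passenger complex, had signals of 520.9, 1157 and 2301 in liver and 286.2, 470.4 and 732 in kidney, overlapping ranges, with a difference of 1.19 ± 0.17 within mice (adjusted p = 1.72e-06) and liver higher in 10 of 10 mice. Cdc20 and Ube2c, an activator and the E2 enzyme of the anaphase promoting complex, were higher in liver than in kidney by 0.99 ± 0.15 and 0.81 ± 0.17, just under the minimum size of 1, and higher in 10 of 10 mice. Plk1, a kinase of mitotic entry and spindle assembly, stood at the limit for kidney minus brain with a difference just above 1, called, and Aurkb, the kinase that Birc5 binds, just missed it with 0.94 ± 0.22. Plk1 and Aurkb were not above background in brain, and against that level the kidney was at least 1.07-fold and 1.26-fold higher. The spindle checkpoint genes Bub1 and Bub1b and the kinase Melk were called higher in liver than in brain, where none of these 3 was above background. Liver was at least 1.51-fold above the brain background level for Bub1 and 1.09-fold for Melk, and Bub1b, with means of 182 in liver and 189 in kidney, had no bound above 1 in liver. The liver mean of Melk, 163.5, was itself below the liver background level.

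At the kinetochore Cenpa, the histone variant that marks centromeres, gave the largest liver minus kidney difference of the members, 1.48 ± 0.21 (adjusted p = 7.98e-07), with signals of 660, 883 and 1659 in liver and 250.8, 322.4 and 504 in kidney that did not overlap. In brain it was not above background, and against that level the kidney was at least 2.19-fold higher. Its weaker probe sets had kidney minus brain differences of -0.11 and -0.32, at means of at most 107 in any tissue. Ndc80 was called higher in liver and in kidney than in brain, but its means lay below the background level in the 3 tissues. Nuf2, the protein Ndc80 pairs with, and Cenpe, a kinetochore motor, were not called in any comparison with brain at their strongest probe sets, with liver differences of 0.91 ± 0.16 and 0.44 ± 0.19. Among spindle and cytokinesis genes the motors Kif11 and Kif20a, the microtubule bundlers Nusap1 and Prc1 and the spindle factor Hmmr were called higher in liver than in brain. Hmmr, which was above background in brain, differed by 1.99 ± 0.19. The other 4 were not, and against the brain background level liver was at least 1.97-fold higher for Kif11, 1.29-fold for Kif20a, 3.71-fold for Nusap1 and 3.40-fold for Prc1. Tpx2, the activator of Aurora A, was not, with a difference of 0.02 ± 0.16, and here the probe sets disagreed. A pair of other Tpx2 probe sets was called higher in liver and in kidney than in brain, where neither of them was above background.

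**Figure D2:**
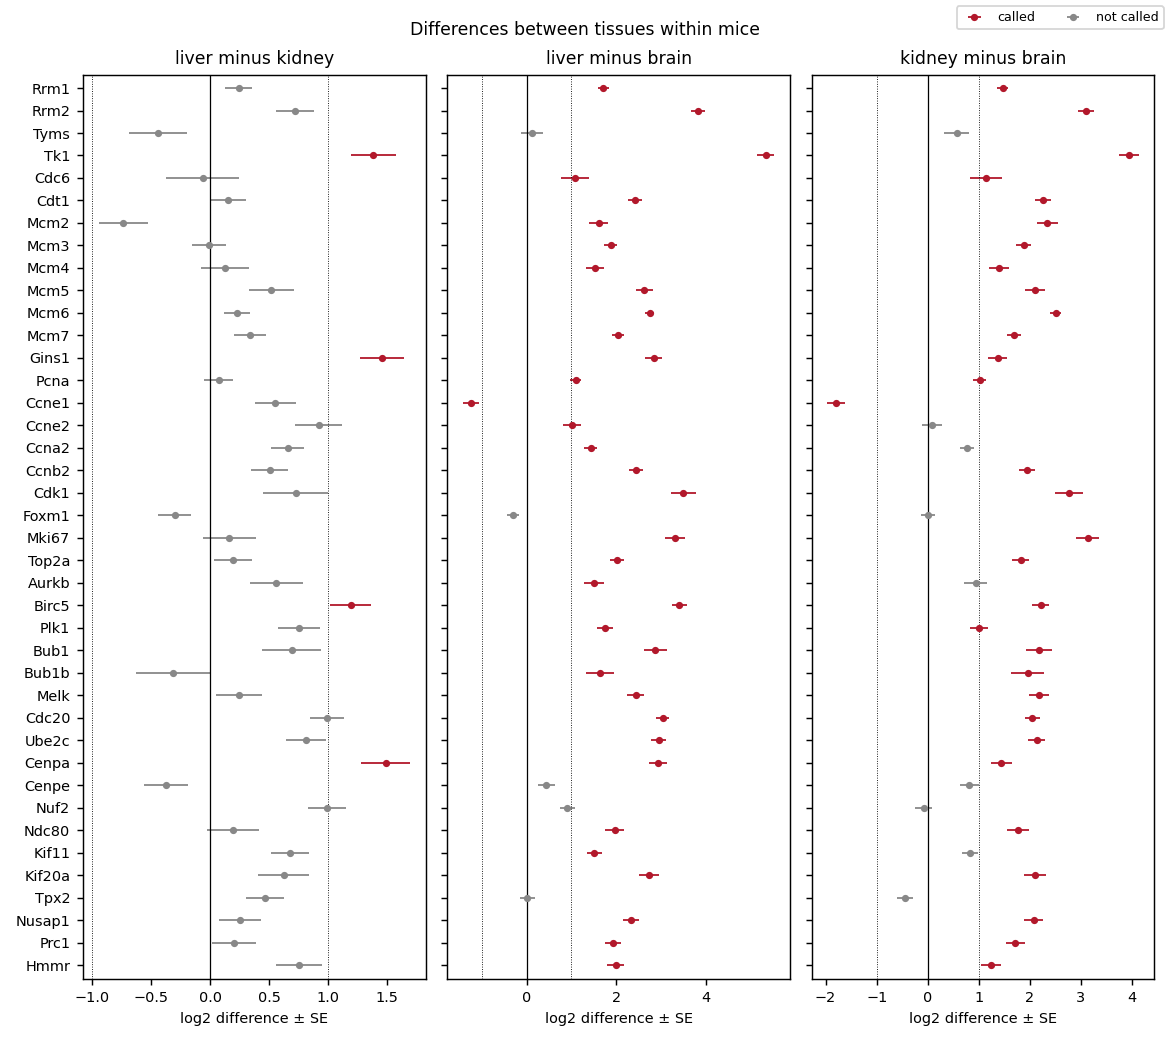
Log2 differences of log2(signal + 16) between tissues within mice for the 40 members, with SE bars. Red points were called, and dotted lines mark differences of -1 and 1. The calls against brain lie to the right except for Ccne1, and 4 members, Tk1, Gins1, Birc5 and Cenpa, are called between liver and kidney.

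Other genes of the cycle were taken as lists. Of 35 other replication genes 15 were called higher and 1 lower for liver against brain, and 12 higher and 0 lower for kidney against brain, beside 12.8% and 20.9%, and 12.6% and 15.8%, of all probe sets. Mcm10, which helps start the fork, had the largest difference, with mean signals of 2286 in liver, 276 in kidney and 254 in brain, while Pola2, a subunit of DNA polymerase alpha, was higher in kidney, with a liver minus kidney difference of -2.28 ± 0.23. Of 50 other mitosis genes 34 were called higher in liver than in brain and 26 higher in kidney than in brain, and 0 were called lower in either, against 20.9% and 15.8% of all probe sets. Cks2, a Cdk binding protein, led with 4.57 ± 0.15 and 4.10 ± 0.15. Between liver and kidney 8 of these genes were higher in liver and 1 lower, with Spc24 of the Ndc80 complex at 1122 and 244.

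Upstream regulators were called in both directions. Of 21 G1 cyclins, kinases and E2F factors 6 were called higher in liver and 2 in brain, beside 12.8% and 20.9% of all probe sets. Between liver and kidney 2 were called higher in liver and 5 in kidney, or 9.52% and 23.8%, beside 7.51% and 12.1%, for these G1 cyclins, kinases and E2F factors. Ccnd1, cyclin D1, had mean signals of 2319 in liver, 5719 in kidney and 1172 in brain, and E2f8, a repressive E2F, had 427, 76 and 34. Of 16 CDK inhibitors and pocket proteins 1 was called higher in liver and 5 in kidney, or 6.25% and 31.2%, beside the same 7.51% and 12.1%. Cdkn1c, the inhibitor p57, had means of 250 in liver, 1922 in kidney and 223 in brain, and Cdkn2d, the inhibitor p19, had 358, 667 and 2077, the highest in brain.

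Dividing cells of other kinds were looked for by their markers. In brain, markers of neural progenitors and neuroblasts summed to 4815 to 12535 and those of oligodendrocyte precursors to 9420 to 19145. In the same brains all the members together summed to 8124 to 10055, and the brain with the highest progenitor sum, pseudoagouti 1 at 12535, had the lowest member sum. In kidney, markers of nephron progenitors summed to 2252 to 3640. In liver, erythroid markers, led by Alas2, summed to 7236 to 13321, and fetal liver markers, led by Afp, to 629 to 6010. The part of these cells in the tissue differences was not tested.

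Within liver and within kidney the members varied together from mouse to mouse. The mean correlation over pairs of members across 10 mice was 0.572 in liver, 0.501 in kidney and 0.0955 in brain, where all probe sets gave 0.0263, 0.0184 and 0.0419. These correlations are descriptions over 10 arrays that the members share, with no test. Other mitosis genes gave 0.494 and 0.437 in liver and kidney, other replication genes 0.354 and 0.219, and CDK inhibitors and pocket proteins 0.140 and 0.135. The markers of each tissue stood above the members there. The 7 liver markers gave 0.912 in liver, the 7 kidney markers 0.567 in kidney and the 7 brain markers 0.592 in brain. Among roles in liver, the pair Cdc20 and Ube2c stood highest at 0.847, the mitotic kinases and checkpoint genes at 0.761, the licensing and fork genes at 0.718, and Foxm1, Mki67 and Top2a lowest at 0.226. In kidney these 4 roles stood at 0.741, 0.690, 0.448 and 0.567.

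In liver the same mice stood at both ends for more than 20 of the 40 members, and in kidney at the low end. In liver, mouse 1 of the heavily mottled class had a median deviation of -0.85 log2 from the tissue mean over the 40 members and was the lowest of 10 mice for 23 of them. Mouse 1 of the slightly mottled class stood at 0.67 and was the highest for 24. The second mice of these classes lay on the same sides, at -0.37 and 0.42. The median deviation of all probe sets in these 4 livers was between -0.11 and 0.10. In kidney heavily mottled 1 was again lowest, at -0.59, and the lowest mouse for 26 members, with heavily mottled 2 at -0.32, while mottled 1 was highest at 0.45 and the highest mouse for 17. In brain the order differed, with heavily mottled 1 at 0.26, where all probe sets were at 0.20, and pseudoagouti 1 lowest at -0.31, the lowest mouse for 14 members. No brain was the highest for more than 9. The share of all probe sets for which each array was lowest or highest was not counted.

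**Figure D3:**
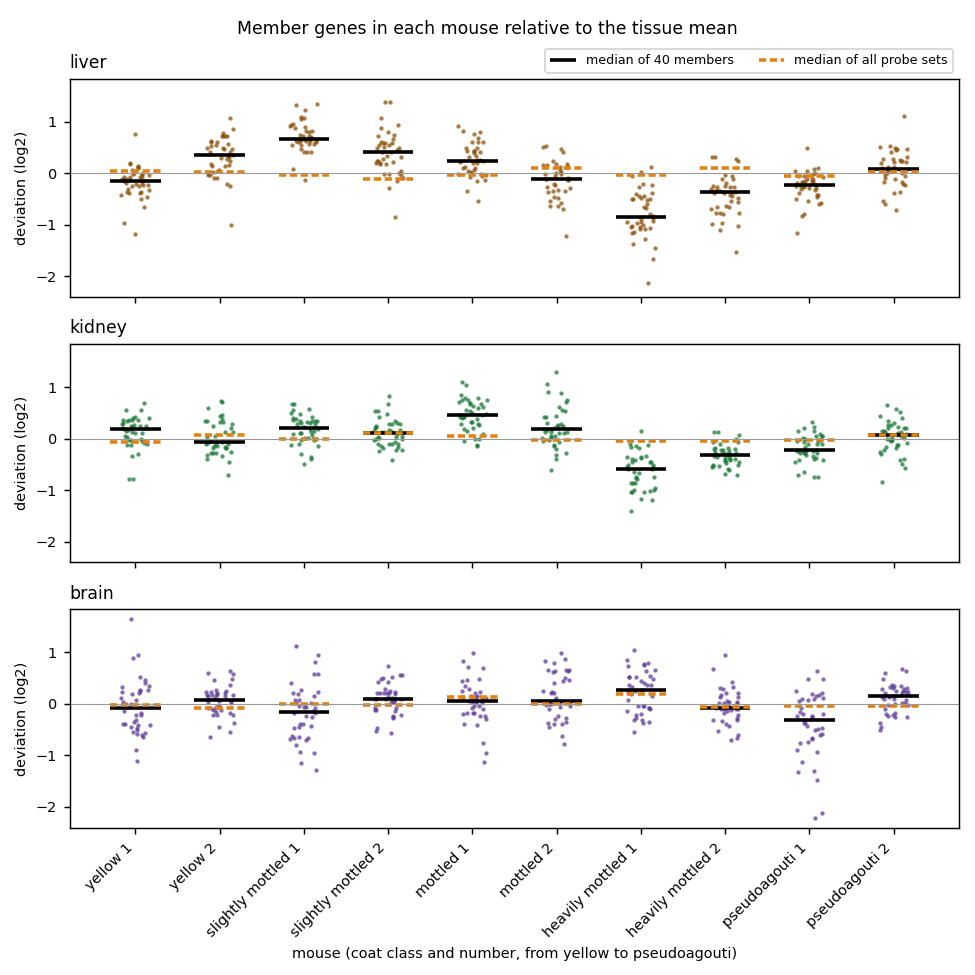
Deviation of log2(signal + 16) of each member from its tissue mean, by mouse, in coat order. Points are the 40 members, black bars their median and dashed orange bars the median of all probe sets. Heavily mottled 1 is lowest in liver at -0.85 and in kidney at -0.59.

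Mki67 shows the spread in full. Its liver signals were 827 and 1704 in yellow mice 1 and 2, 1862 and 1687 in slightly mottled, 1278 and 1130 in mottled, 396 and 975 in heavily mottled and 742 and 1590 in pseudoagouti mice. Its kidney signals in the same order were 1122 and 959, 1256 and 988, 1673 and 1328, 584 and 668, and 746 and 1078. The heavily mottled mice were the lowest pair in kidney, and in liver the first of them was lowest while the second lay above yellow 1 and pseudoagouti 1. Rrm2 in liver was 2644 and 4572, 4983 and 6320, 3498 and 3280, 1453 and 2434, and 2239 and 4103, and in kidney 1937 and 1782, 2095 and 2220, 3206 and 3657, 864 and 1473, and 1491 and 2609. For both genes heavily mottled 1 was lowest in liver and in kidney. The highest liver was that of slightly mottled 1 for Mki67 and slightly mottled 2 for Rrm2, and the highest kidney that of mottled 1 and mottled 2.

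**Figure D4:**
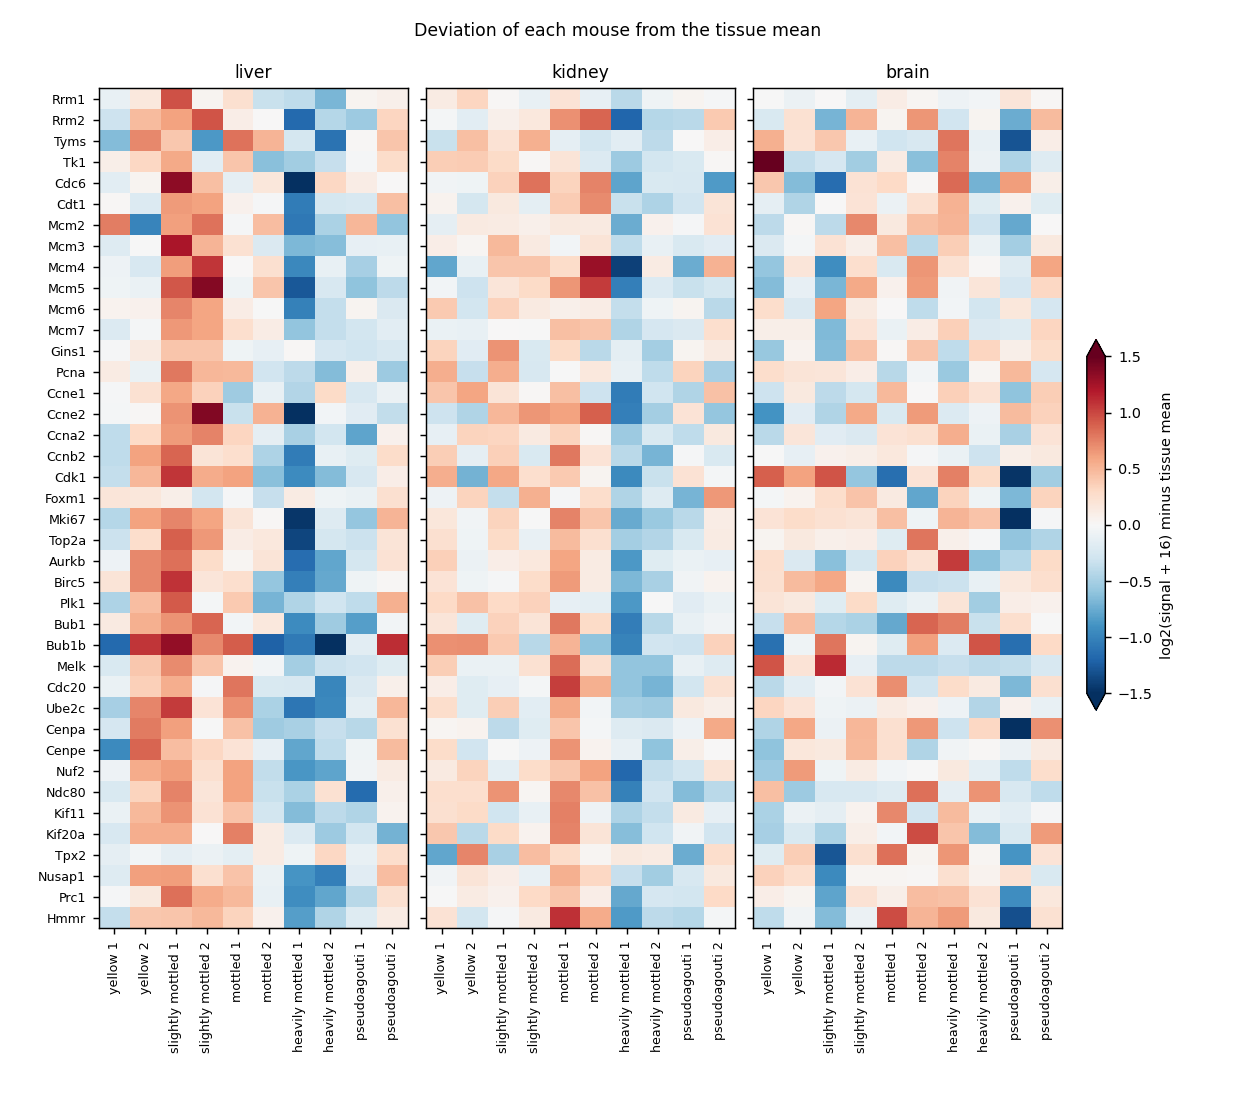
Deviation of log2(signal + 16) of each member, in rows, from its mean in a tissue, for each mouse, in columns in coat order. Red is above and blue below the mean, with the colour scale ending at -1.5 and 1.5. The column of heavily mottled 1 is blue for 38 of 40 members in liver and 39 in kidney, and brain columns are mixed.

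Liver and kidney of the same mouse followed each other. The correlation of a member between liver and kidney over 10 mice had a median of 0.566 and was above 0 for 38 of 40 members. All probe sets above the background level in both tissues had a median of 0.229, with 70.1% above 0. Among the members the correlation ran from -0.07 for Foxm1 to 0.853 for Ccna2. It rested largely on the heavily mottled pair, for without heavily mottled 1 the median was 0.328 and without both heavily mottled mice 0.188, beside 0.246 for all probe sets above background. Without both, the mean correlation among members was 0.489 in liver and 0.258 in kidney. Over all 10 mice the liver and kidney medians of other lists ran from -0.309 for liver markers to 0.471 for other mitosis genes. CDK inhibitors and pocket proteins stood at 0.419, and so did erythroid markers. Without both heavily mottled mice these lists stood at 0.563 and 0.601, above the members, and other mitosis genes at 0.188. Between liver and brain the median for members was 0.0907, beside 0.114 for all probe sets above background, and between kidney and brain 0.124, beside 0.287. The members were not filtered in this way, and 22 of them were not above background in brain. Without the filter all probe sets gave 0.0476 for liver and brain and 0.172 for kidney and brain. Without heavily mottled 1 the medians of the members were 0.198 for liver and brain and 0.413 for kidney and brain. All probe sets above background gave 0.142 and 0.366 there. The 0.328 of the members between liver and kidney, lower than 0.413, stood beside 0.205 for all probe sets above background.

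Some marker sums stood at an end of their range in heavily mottled 1. In liver, heavily mottled 1 had the lowest sum of the 4 fetal liver markers, 629 of a range of 629 to 6010, and the highest sum of 8 erythroid markers, 13321, and slightly mottled 1 had 2083 and 7567. Mottled 1, where the median deviation of the members in liver was 0.24, came next to heavily mottled 1 on both, with 888 and 12773.5. In kidney heavily mottled 1 had the lowest sum of 8 nephron progenitor markers, 2252, and the highest sum of 7 kidney markers, 158136, and of 7 liver markers, 32416. The kidney marker sum ran with the number of the mouse. It ran from 91232 over a median of 145738 to 158136 in kidneys of mice numbered 1. In those of mice numbered 2 it ran from 80685 over 95306 to 100083. The part of these cells in the differences between mice was not tested.

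The mouse effect asked whether a gene varied between mice in the same way in the 3 tissues. It was called for 2 of 40 members, Rrm2 (adjusted p = 0.0300) and Mcm6 (adjusted p = 0.0452) by limma's moderated F-test, where 2.09% of all probe sets were called. The tissue means of a mouse spanned 1.42 log2 for Rrm2, from heavily mottled 1 to slightly mottled 2, and 1.02 for Mcm6, from heavily mottled 1 to slightly mottled 1. At an unadjusted p under 0.05 the members numbered 17, or 42.5%, beside 16.6% of all probe sets. With the number-by-tissue term removed as a replicate block 0 members were called, against 0.0866%, and 18 had an unadjusted p under 0.05, against 11.2%. Both calls were lost in fits on any pair of tissues. The variation ratio, the spread between mice over the spread between tissues of a mouse, was above 1.5 for 0 members, against 0.804%, or 0.453% with the number removed, and its highest value was 1.14 for Foxm1.

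The number in the labels, 1 or 2, was set against the members as well, since its meaning is not given. On the mean of 3 tissues 1 member was called, Mcm4, higher in mice numbered 2 by 0.65 ± 0.17 (adjusted p = 0.0400), where 2.92% of all probe sets were called higher and 2.63% lower. In kidney its signals were 566, 1318, 1198.5, 365 and 581 in mice numbered 1 and 913, 1323.5, 2440, 1078 and 1418 in mice numbered 2, from yellow to pseudoagouti, so mouse 2 was higher in each class in that tissue. Mouse 2 was lower in yellow livers, 910 against 1023, and in heavily mottled brains, 369.6 against 430.9. The second Mcm4 probe set did not share this, with -0.19 ± 0.16 (adjusted p = 0.537). The called probe set carries the suffix x, which marks probes that can match other transcripts. Mcm6, Mcm5 and Rrm2 also had the larger difference at their x probe sets, with 0.51, 0.43 and 0.54, none of them called. At their strongest probe sets without a suffix the differences were -0.19, -0.14 and 0.18. Foxm1, Mcm3 and Tpx2 went the other way, with -0.45, 0.11 and 0.34 at the x probe sets and 0.17, 0.52 and 0.41 without a suffix. The x probe set had the larger difference in 6 of 9 members with both kinds, or 66.7%. Over the 812 genes of the array with both kinds above background, the share was 63.8%. In the single tissues 0 members were called for the number in limma. The called probe sets of all genes were 1.74% higher and 1.99% lower in liver, 0.209% and 0.173% in kidney and 0.264% and 0.213% in brain.

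At an unadjusted p under 0.05 in limma, 0 members were higher and 0 lower in liver in mice numbered 2, beside 9.43% and 7.52% of all probe sets. In kidney 3 members were higher and 2 lower, beside 12% and 8.48%, and in brain 5 and 0, beside 6.6% and 11.5%. For the mean of tissues 3 were higher and 1 lower, beside 10.8% and 10.6%. The difference was above 0 for 25 of 40 members in liver, 21 in kidney, 26 in brain and 25 for the mean, where all probe sets gave 56.2%, 56.5%, 37.1% and 49.1%.

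Since members moved together, 150 bases before the start of a few of them are shown. RefSeq promoters of build GRCm38.p6 were at hand for 32 of the 40 measured members, and not for Foxm1, Aurkb, Kif20a, Ccna2, Mcm4, Gins1, Tpx2 and Ccne2. In the 250 bases before the first listed start, both strands were searched for CCAAT, the box bound by NF-Y, for the element CHR, spelled TTTGAA or TTCGAA, and for the E2F site, spelled TTTCCCGC, TTTCGCGC, TTTGCCGC or TTTGGCGC. Cdk1 and Top2a are shown as genes of mitosis, and Mcm6 and Rrm2 as the genes with a called mouse effect, 5′ to 3′, with matches in capitals.

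Cdk1 (chr10:69352913-69353062, minus strand): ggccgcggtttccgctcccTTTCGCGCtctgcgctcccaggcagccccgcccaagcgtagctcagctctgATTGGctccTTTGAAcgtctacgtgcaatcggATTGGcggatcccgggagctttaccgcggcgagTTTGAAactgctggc
Top2a (chr11:99024190-99024339, minus strand): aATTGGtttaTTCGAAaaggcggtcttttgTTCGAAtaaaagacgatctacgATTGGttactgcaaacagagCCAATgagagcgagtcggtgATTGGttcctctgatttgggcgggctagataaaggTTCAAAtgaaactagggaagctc
Mcm6 (chr1:128359706-128359855, minus strand): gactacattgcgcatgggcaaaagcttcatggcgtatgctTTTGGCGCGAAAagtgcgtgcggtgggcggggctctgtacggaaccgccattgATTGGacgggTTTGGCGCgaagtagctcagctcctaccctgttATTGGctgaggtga
Rrm2 (chr12:24708104-24708253, plus strand): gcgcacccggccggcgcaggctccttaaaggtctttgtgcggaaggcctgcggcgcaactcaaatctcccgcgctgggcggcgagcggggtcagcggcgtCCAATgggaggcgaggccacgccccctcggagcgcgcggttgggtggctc

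Cdk1 held 2 CCAAT boxes, 2 CHR elements and 1 E2F site in this stretch, Top2a 4 boxes and 3 elements, Mcm6 2 boxes and 3 E2F matches, of which a pair overlap, and Rrm2 1 box. Of the 32 promoters 22, or 68.8%, held CCAAT, beside 34.5% of 27025 promoters of the same length. A CHR element was in 10, or 31.2%, beside 17.4%, and an E2F site in 5, or 15.6%, beside 1.91%. By role, of 12 members of DNA precursor synthesis, licensing and fork 4 held an E2F site and 2 a CHR element, and of the 20 others 1 and 8. A match describes letters, not binding.

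Coat colour was set against each gene as a slope over classes, from 0 for yellow to 4 for pseudoagouti. No slope was called for any of the 40 members in liver, kidney, brain or their mean in limma, where 0, 0.00222, 0 and 0.00222% of all probe sets were called. The members with an unadjusted p under 0.05 numbered 3 in liver, 3 in kidney, 1 in brain and 5 for the mean, beside 2.85, 2.85, 2.3 and 2.53% of all probe sets. Slopes were small and mostly of 1 sign. They were below 0, falling toward the pseudoagouti end of the scale, for 39 of 40 members in liver and 39 in kidney. Of all probe sets 49.6% and 47.8% had slopes above 0 there. Slopes were below 0 for 20 members in brain and 39 for the mean of tissues. Of all probe sets 56% and 51.7% were above 0 there. The pseudoagouti mice were not the lowest, with median deviations of the members of -0.23 and 0.09 in liver and -0.22 and 0.07 in kidney. Each lay above those of both heavily mottled mice in that tissue. The median slope was -0.16 log2 per class in liver, -0.08 in kidney and 0.00 in brain. Since members are correlated over the same mice, these signs are not separate observations.

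Bub1 had the smallest unadjusted p in liver, 0.00579, and an adjusted p near 1. Its signals were 249.7 and 333 in yellow mice, 369.5 and 426.3 in slightly mottled, 218.5 and 254.5 in mottled, 109.7 and 150.7 in heavily mottled and 120.5 and 219.7 in pseudoagouti mice, a slope of -0.30 ± 0.09 per class. The low values lay in the heavily mottled pair and 1 pseudoagouti mouse, so the classes did not fall in steps. Cdk1, Mki67, Top2a, Birc5 and Melk were the members with an unadjusted p under 0.05 for the mean of tissues, with slopes between -0.19 and -0.13 and adjusted p near 1. With both heavily mottled mice left out, a choice made after seeing the data, 36 slopes in liver and 30 in kidney were below 0. The test of slopes that differ between tissues called 0 members and 0% of all probe sets, and that of number differences 0 members and 1.7%.

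**Figure D5:**
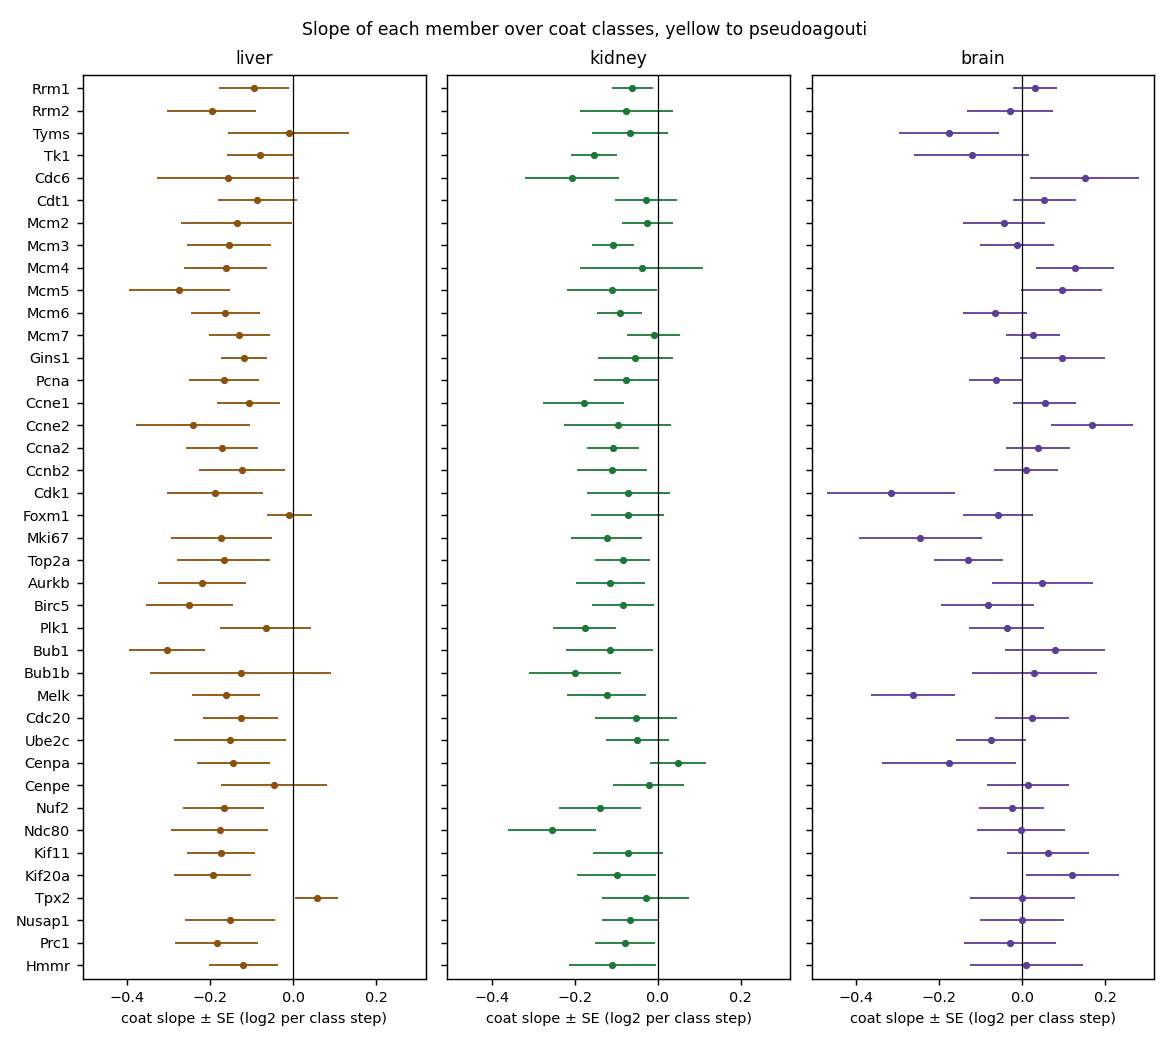
Slope of log2(signal + 16) per step of coat class, from yellow to pseudoagouti, for each member in each tissue, with SE bars. Points lie to the left of 0 for 39 of 40 members in liver and in kidney and for 20 in brain, and no slope was called.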

How the data were processed

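The authors' deposited values are intensities, MAS5 signals per probe set of the Affymetrix Mouse Genome 430 2.0 array. MAS5 is named per the submitters' processing notes, with its version not given in the sources used here. In each of the 30 deposited columns the mean after trimming 2% at each end was 500.0, so a shift of all genes between arrays cannot be seen. The 64 control probe sets were left out of 45101. The other values were tested with limma 3.58.1 in R 4.3.3 on log2(signal + 16), with no filter and Benjamini-Hochberg adjustment over 45037 probe sets. The offset makes log2 differences of low genes too small. Tissue contrasts kept the mouse as a block. The mouse effect was a moderated F-test over mice with tissue in the model, and the number and coat slopes were fitted within each tissue and for the mean of tissues. Tests were run on simulated data first. All members were named at their strongest probe set, with other probe sets where they differed in call or direction, and from other lists at most 3 genes per comparison by size or signal. Members and lists were chosen with earlier results of these data known. Alternatives were the offset, filters, quantile normalisation, probe set choice, a Gapdh covariate, blocks and leaving out mice. Nothing in the labels says how the mice of a class are related. The p-values of the number and coat fits rest on the spread between these mice. Those of the tissue contrasts, the mouse effect and the tests of differences between tissues rest on the spread left once tissue and mouse are fitted.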

Additional observations from a re-analysis of the deposited data

Results flagged for a closer look

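Of 120 groups of 10 arrays, 1 for each member and tissue, 9 held an array that stood apart by Dixon's ratio, the gap to the nearest array over the whole range. Chance flags about 1 in 20 groups, and members share their arrays. In kidney, heavily mottled 1 was lowest for Mcm2 (signal 869 against 1340 in the next array, ratio 0.6419), Plk1 (78.5 against 136.5, ratio 0.5321) and Aurkb (94.8 against 161.5, ratio 0.4677). In liver the same mouse was lowest for Cdc6 (4.4 against 64.1, ratio 0.568). In brain, pseudoagouti 1 was lowest for Mki67 (8.9 against 94.1, ratio 0.7876), Cenpa (13.8 against 78.5, ratio 0.595) and Tyms (4.4 against 24.9, ratio 0.4792). Also in brain, slightly mottled 1 was lowest for Nusap1 (45.1 against 85, ratio 0.5584) and mottled 2 highest for Top2a (359 against 223, ratio 0.4678). Apart from Mcm2 and Top2a, each of these outlying signals lay below the background level of its tissue.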

How the results depend on the processing

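The count of members higher in liver than in brain, 34, was 32 to 35 when 1 mouse was left out and 25 to 35 under the other alternatives, and that for kidney, 30, was 27 to 30 and 21 to 33. Members higher in liver than in kidney, 4, became 7 with quantile normalisation and 4 to 6 with 1 mouse left out, and Ccne1, the 1 member lower in liver than in brain, left 0 with quantile normalisation or at probe sets without a suffix. At those probe sets the kidney minus brain difference of Cenpa turned to -0.11 and the number difference of Mcm4 to -0.19. The mouse effect, 2 members, fell to 1 with offset 1 or probe sets without a suffix, and to 0 with the replicate block, the Gapdh covariate or any pair of tissues. With 1 mouse left out it ran from 0 to 5, the latter without mottled 1. The number difference of the mean of tissues, 1 member, became 0 without a suffix, without both heavily mottled mice or with the Gapdh covariate, 3 with coat class as a block, and 0 to 2 with 1 mouse left out. In kidney, from 0, it became 1 under either filter or the coat block and 0 to 3 with 1 mouse left out, 3 without mottled 1, and in brain 0 to 1. Slopes below 0 in brain, 20 members, ran from 12, without pseudoagouti 1, to 25. In liver and kidney they ran from 36 to 39 and from 34 to 40 with 1 mouse left out, and from 31 and 30 upward otherwise. No coat slope of a member was called under any alternative. Over 73 results for single members, 1218 of 1288 comparisons kept direction and call, 68 lost the call and 2 reversed, and the cause was not tested. The labels do not say whether equal numbers link mice of different classes, and the numbers were not taken to pair them. Differences between mouse 2 and 1 correlated over 0.1 in 7, 6 and 5 of 10 pairs of coat classes in liver, kidney and brain. The median correlations were 0.137, 0.187 and 0.109. Signal near background limits 22 members in brain.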
